A study of Mus musculus with 19 samples.

Results

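The circadian clock of skeletal muscle was followed through the mRNAs of its 10 core genes, Arntl, Clock, Per1, Per2, Per3, Cry1, Cry2, Nr1d1, Nr1d2 and Dbp. These were chosen by gene symbol from a table of 13067 genes, and all 10 were present. RNA came from gastrocnemius, a calf muscle of the mouse, and was sequenced in 19 libraries after polyA selection. A control group of 7 libraries came from healthy mice without a tumour. A C26 vehicle group of 7 libraries came from male Balb/c mice that received C26 cells, a mouse adenocarcinoma line that causes muscle wasting (cachexia), under the skin of the right flank at an age of 2 months. These mice were injected intraperitoneally with ethanol in saline from day 4. A C26 rolipram group of 5 libraries came from mice treated in the same way, with rolipram at 3 mg/kg in place of vehicle alone. Rolipram inhibits phosphodiesterase 4, which degrades cyclic AMP. All mice were kept in a 12 h light-dark cycle. The labels do not separately give strain, sex, age or injections for the controls, and they do not say that each library is a separate mouse, so each p-value reflects variation among libraries, which may be technical. The tumour sat outside the muscle, and the muscle carried no engineered allele.

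The clock is a feedback loop of transcription. Arntl (also called Bmal1) and Clock encode partner proteins that bind E-box sequences and switch on the Period genes (Per1, Per2, Per3), the Cryptochrome genes (Cry1, Cry2), Nr1d1 and Nr1d2 (also called Rev-erb alpha and beta) and Dbp. PER and CRY proteins return to the nucleus and block the Arntl-Clock pair, while the Nr1d1 and Nr1d2 proteins repress Arntl at sequences called ROREs. Dbp, an activator that binds D-box sequences, is among the clock's most strongly cycling outputs. In skeletal muscle the clock times glucose use and metabolism, and its genes peak at different times of day. The time of day at which the muscles were taken is not given in the labels, so a difference in sampling time between groups cannot be told apart from the tumour or the treatment.

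Promoter sequences show which of these control letters stand next to the clock genes. Windows from 250 bases before to 50 after each RefSeq start (GRCm38.p6) were searched on both strands. They covered 9 of the 10 genes, all but Per2, with 13 windows in all. The E-box CACGTG was found in 2 clock genes, Cry1 and Per1, and in 7.15% of 32851 windows of all genes. A D-box, TTATGTAA or TTACGTAA, was found in Per3, which holds 2 copies, and in 1.06% of windows. The extended RORE, which is the core AGGTCA preceded by AANT, was found in Arntl and in 0.219% of windows. The core AGGTCA alone was found in Arntl, Clock, Nr1d2 and Per1 and in 16.3% of windows. The cyclic AMP response element TGACGTCA was found in 0 of the 9 clock genes and in 1.79% of windows. TGACG, contained in it, was found in Cry1, Cry2 and Per1 and in 20.8%. A clock gene counts if any of its windows holds a match, whereas the percentages count single windows, so the units differ. Matches are letters only and do not show binding, and a gene without a match may hold the motif outside its windows. Sequences are shown for the genes that hold the best known motifs of each arm of the loop, 5′ to 3′ on the strand of the gene. Capitals mark the D-boxes in Per3, 205 and 158 bases before the start (chr4:151044666-151044915, minus strand), and the E-box in Cry1, 60 bases before it (chr10:85185055-85185304, minus strand). They also mark the E-box in Per1, 166 bases before the start (chr11:69098699-69098948, plus strand), and the extended RORE in Arntl, which lies just inside the transcript (chr7:113207528-113207557, plus strand).
Per3: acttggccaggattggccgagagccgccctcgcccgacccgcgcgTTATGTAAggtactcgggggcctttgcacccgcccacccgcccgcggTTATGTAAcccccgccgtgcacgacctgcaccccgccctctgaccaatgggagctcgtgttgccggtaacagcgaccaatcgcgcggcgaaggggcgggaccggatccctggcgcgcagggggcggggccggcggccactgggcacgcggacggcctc
Cry1: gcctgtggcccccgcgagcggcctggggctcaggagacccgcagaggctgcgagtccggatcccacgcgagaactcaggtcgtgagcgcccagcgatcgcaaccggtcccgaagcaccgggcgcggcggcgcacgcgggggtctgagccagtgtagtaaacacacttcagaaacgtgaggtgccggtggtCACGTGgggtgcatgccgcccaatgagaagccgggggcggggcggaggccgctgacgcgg
Per1: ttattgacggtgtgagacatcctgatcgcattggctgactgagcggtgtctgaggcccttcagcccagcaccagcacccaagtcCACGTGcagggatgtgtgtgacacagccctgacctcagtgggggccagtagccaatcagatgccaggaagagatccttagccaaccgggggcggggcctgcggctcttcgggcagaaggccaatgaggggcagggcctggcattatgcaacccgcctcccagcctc
Arntl: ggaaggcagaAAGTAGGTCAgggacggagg

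Values are RPKM, reads per kilobase of gene per mega reads of the library, as deposited. Library sizes recovered from these values ran from 18.6 to 23.2 M (mega) reads in controls, 20.6 to 46.8 M in C26 vehicle and 17.1 to 39.7 M in C26 rolipram. C26 vehicle 3 was the deepest library, and it also had the highest Per1, Per2, Cry2, Nr1d1 and Nr1d2 of the vehicle group. The clock gene with the fewest reads in any library was Arntl with 61, and the most were the 13822 of Cry2. Muscle fibre markers summed to 74678 to 97740 RPKM in controls, so the labelled tissue held its defining genes. Across the table, 11141 genes passed a filter of at least 1 RPKM in at least 5 libraries, all 10 clock genes among them. Changes are differences of mean log2(RPKM + 1) tested in limma over all 19 libraries, and a change with an adjusted p below 0.05 is called. The median change of all genes was 0.15 in both comparisons with controls and -0.01 between rolipram and vehicle. All-gene calls against controls were 4822 higher and 2646 lower for vehicle (3745 and 3658 after median-of-ratios scaling), and 4286 and 1824 for rolipram (2895 and 2964).

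In control muscle the output gene Dbp was the most abundant clock transcript per length, at 76.4 ± 17.9 RPKM (SD, n = 7). Nr1d1 (38.1 ± 11.4) and Nr1d2 (31.9 ± 1.11) followed and differed by less than their spread. Per1 (14.1 ± 8.21) and Cry2 (13.1 ± 4.03) formed the next pair, then Per3 (8.57 ± 2.98), Per2 (5.05 ± 1.83) and Cry1 (5.03 ± 0.743). The activators were lowest, with Clock at 2.39 ± 0.660 and Arntl at 2.21 ± 1.01 RPKM. Neighbours within each of the pairs Per1 and Cry2, Per2 and Cry1, and Clock and Arntl did not differ beyond their spread, whereas every control library had more Dbp than any had Nr1d1.

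**Figure D1:**
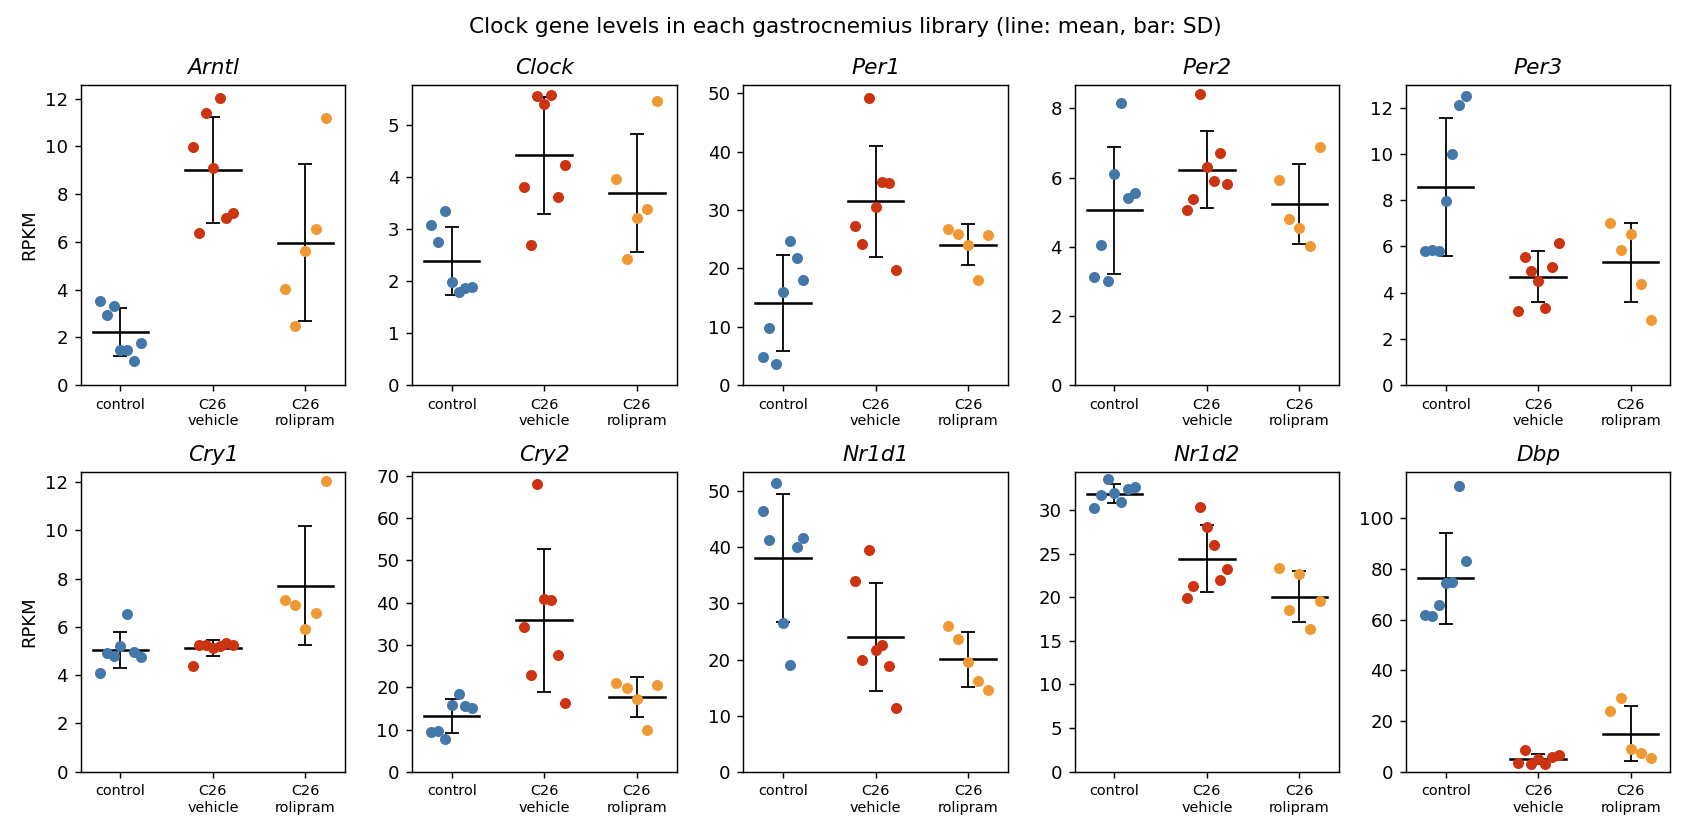
RPKM of the 10 clock genes in each library (vertical axes, linear, each starting at 0) by group (horizontal axis); points are libraries, the line is the group mean and the bar 1 SD. Dbp falls from 61.6 to 113 RPKM in controls to 3.19 to 8.55 in C26 vehicle, while Arntl rises from 1.01 to 3.51 to 6.38 to 12.0.

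C26 vehicle against control asked how the clock of the muscle differed in tumour-bearing mice. The 2 ends of the loop moved apart. Arntl, the activator, rose 4.08-fold in mean RPKM and Dbp, the output, fell 14.7-fold, and for these 2 genes no vehicle library overlapped a control. Clock, Per1 and Cry2 also rose, and Per3, Nr1d1 and Nr1d2 fell. Per2 and Cry1 did not pass the test. The 4 higher and 4 lower calls among 10 genes stand beside 43.3% higher and 23.8% lower of all genes tested (67% in either direction), and 39.1% of all genes had groups that did not overlap. The median absolute change was 0.69 in the clock genes and 0.40 in all genes.

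Arntl, without which the mouse clock stops, ran from 1.01 to 3.51 RPKM in controls (median 1.77) and from 6.38 to 12.0 in C26 vehicle (median 9.08). Every vehicle library was therefore above every control. The change was 1.67 on the log2 scale (SE 0.23, adjusted p = 3.01e-06). Clock, its partner, had 1.78 to 3.36 RPKM in controls (median 1.98) and 2.70 to 5.59 in vehicle (median 4.25). Its change was 0.67 (SE 0.15, adjusted p = 0.000655), with an overlap because the lowest vehicle library, number 2, lay below controls 1, 2 and 3. Both activators were called under all alternatives run in this comparison.

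The Period genes split. Per1, an immediate responder to glucocorticoids and cyclic AMP as well as a clock repressor, had 3.67 to 24.6 RPKM in controls (median 16.0) and 19.7 to 49.2 in vehicle (median 30.5). Only controls 5 and 6 reached into the vehicle range. The change was 1.30 (SE 0.31, adjusted p = 0.0011). Per2, a partner of Per1 in the repressor complex, had 3.00 to 8.17 RPKM in controls and 5.06 to 8.41 in vehicle. Its change of 0.30 (SE 0.16, adjusted p = 0.106) did not pass, although it did without control 5 (0.41, adjusted p = 0.0197). Per3, whose loss leaves the mouse clock running, had 5.78 to 12.5 RPKM in controls (median 7.97) and 3.21 to 6.14 in vehicle (median 4.95). It fell by 0.72 (SE 0.19, adjusted p = 0.00257), and 6 of 7 vehicle libraries lay below all controls. Per1 and Per3, both targets of the Arntl-Clock pair, thus changed in opposite directions, and their ratio was 0.633 to 2.47 in controls and 3.21 to 10.4 in vehicle.

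The Cryptochromes also parted. Cry2 had 7.81 to 18.3 RPKM in controls (median 15.2) and 16.3 to 68.0 in vehicle (median 34.2). Vehicle 7 alone fell within the control range. The change was 1.31 (SE 0.25, adjusted p = 0.000117). Cry1, the stronger repressor of the pair, had 4.08 to 6.52 RPKM in controls and 4.40 to 5.34 in vehicle. Its change was 0.03 (SE 0.11, adjusted p = 0.827), and its direction turned under median-of-ratios scaling (-0.13). The Cry2 to Cry1 ratio was 1.63 to 3.19 in controls and 3.10 to 12.9 in vehicle.

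The repressors of Arntl were lower in vehicle. Nr1d1 had 19.0005 to 51.5 RPKM in controls (median 41.3) and 11.3 to 39.6 in vehicle (median 21.7). The groups overlapped broadly, and the change was -0.67 (SE 0.24, adjusted p = 0.0162). Nr1d2 had 30.2 to 33.5 RPKM in controls (median 31.9) and 19.95 to 30.3 in vehicle (median 23.2). Only vehicle 3 reached the lowest control. Nr1d2 fell by 0.39 (SE 0.09, adjusted p = 0.00114), a smaller change than that of Nr1d1 but from a control group with a much smaller spread.

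Dbp had 61.6 to 113 RPKM in controls (median 74.4) and 3.19 to 8.55 in vehicle (median 5.23). The lowest control thus held several times more Dbp than the highest vehicle library. It fell by 3.68 on the log2 scale (SE 0.29, adjusted p = 1.37e-09). Dbp went from the first to the seventh of the 10 genes in level, and in vehicle Cry2 (35.8 ± 16.8 RPKM) and Per1 (31.5 ± 9.51) stood highest, with less than their spread between them. The 5 lowest genes there, Per2, Dbp, Cry1, Per3 and Clock, had means from 6.23 to 4.42 RPKM, and neighbours among them differed by less than their spread. Dbp shares 18.01% of its exonic bases with Sphk2, which lies on the opposite strand, and the strand setting of the counting is not given. Sphk2 rose from 3.87 ± 0.350 to 8.45 ± 1.07 RPKM, opposite in direction to Dbp. The corresponding overlap was 8.55% for Nr1d1 with Thra (change -0.25, adjusted p = 0.0101), 4.67% for Cry2 and 0.439% for Arntl.

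**Figure D2:**
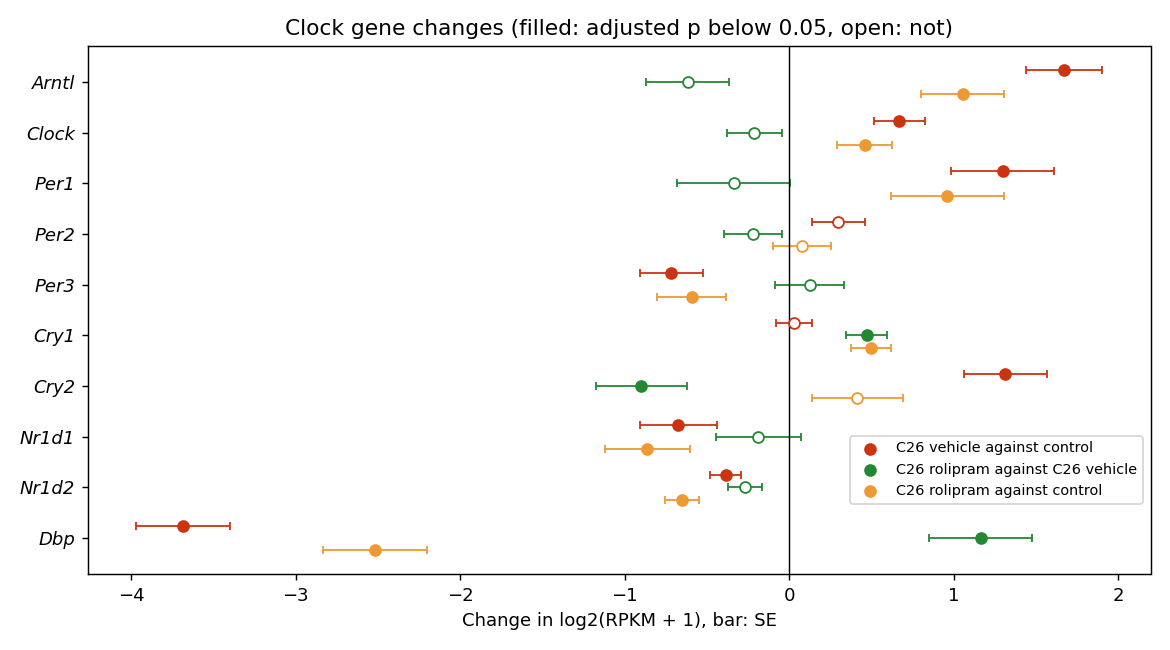
Change in log2(RPKM + 1) ± SE (horizontal axis) of each clock gene (vertical axis), coloured by comparison, with filled points for an adjusted p below 0.05 and open points otherwise. Dbp lies farthest left at -3.68 and Arntl farthest right at 1.67 in C26 vehicle against control, while Dbp and Cry1 are the filled points right of 0, and Cry2 the one left of it, in C26 rolipram against C26 vehicle.

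The healthy controls themselves were not uniform in the clock. Controls 1, 2 and 3 had Arntl at 3.51, 2.92 and 3.29 RPKM, and controls 4 to 7 had 1.49, 1.48, 1.01 and 1.77. Per1 was 4.74, 9.83 and 3.67 RPKM in controls 1 to 3 and 16.0, 24.6, 21.9 and 17.9 in controls 4 to 7. Clock stood with Arntl, higher in controls 1 to 3, and Per2, Per3, Cry2 and Dbp stood with Per1, lower there, without overlap in each of these genes. Nr1d2 was at 30.2 to 33.5 RPKM in all 7, and Cry1 and Nr1d1 overlapped. The labels give no batch, cage or time that separates controls 1 to 3, so they are described and not tested as a group. The split was seen in the clock genes themselves, and the share of all genes that it separates was not counted. In the first principal component of the controls over all genes tested, controls 1 to 4 scored 13.3, 6.56, 8.33 and 7.38. It held 34.4% of variance, and control 5 scored 1.62 there, control 6 -13.1 and control 7 -24.2. In the second (29.5% of variance), controls 1 to 3 scored 6.73, 5.80 and 16.0. Controls 4 to 6 scored -13.3, -18.4 and -5.11 in it, and control 7 scored 8.27. In neither did controls 1 to 3 stand apart from all of controls 4 to 7.

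The spread among controls was wide for the clock genes as a group. The SD of log2(RPKM + 1) over controls had a median of 0.44 in the clock genes and 0.15 in all genes. Per1 reached 0.97, above 99.6% of genes, and Nr1d2 was at 0.05, above only 1.26%. The median SD of clock genes and of all genes was closer in vehicle, at 0.32 and 0.22, and was 0.35 and 0.20 with rolipram. Without controls 1 to 3, a choice made after seeing the data, the change of Per1 in vehicle was 0.59 (adjusted p = 0.0131) in place of 1.30, and that of Nr1d1 was -0.42 (adjusted p = 0.198), no longer called. Arntl then changed by 2.02, Per3 by -1.04 and Dbp by -3.87, each further from 0. Controls 1 to 3 had the highest Arntl and the lowest Per1, Per3 and Dbp of the controls. The direction in which these changes moved was therefore fixed by the choice. Adjusted p-values without controls 1 to 3, here and below, are descriptive only.

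C26 rolipram against C26 vehicle asked what the phosphodiesterase inhibitor changed in tumour-bearing mice. Dbp and Cry1 rose and Cry2 fell. The other 7 clock genes did not pass the test. These 2 higher and 1 lower calls stand beside 9.78% higher and 7.32% lower of all genes tested (17.1% in either direction), and 4.08% of all genes had groups that did not overlap. The median absolute change was 0.30 in the clock genes and 0.17 in all genes.

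Cry1 was 7.09, 6.90, 5.93, 6.59 and 12.0 RPKM in rolipram libraries 1 to 5, against 4.40 to 5.34 in vehicle. All 5 libraries lay above all 7 vehicle libraries, and number 5 stood far above the rest. The change was 0.47 (SE 0.12, adjusted p = 0.0132), with a 1.504-fold higher mean. It remained called when any single library was left out, and was then 0.32 to 0.54. Without rolipram 1 and 2 together it was 0.53 (adjusted p = 0.058). An exact permutation test on each gene gave a p of 0.00126 for Cry1 (adjusted p = 0.0567). This is the smallest p that the 792 assignments of libraries allow, and no gene had a lower adjusted p in that test.

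Cry2 was 21.1, 19.9, 17.3, 9.80 and 20.5 RPKM with rolipram, against 16.3 to 68.0 in vehicle. All 5 rolipram libraries lay below 6 of the 7 vehicle libraries, and number 4 lay below all 7. Cry2 fell by 0.90 (SE 0.28, adjusted p = 0.0299), 2.02-fold in mean RPKM. The call was lost without vehicle 3 (-0.73, adjusted p = 0.0581), vehicle 4 (-0.85, 0.0574), vehicle 5 (-0.85, 0.0596), rolipram 2 (-0.95, 0.0521) or rolipram 4 (-0.71, 0.0984), and when only these 2 groups were fitted (adjusted p = 0.0679). The Cry2 to Cry1 ratio was 1.49 to 2.97 with rolipram, below all 7 vehicle libraries (3.10 to 12.9) and within the range of controls, apart from its lowest library.

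Dbp was 23.8, 29.3, 8.94, 7.27 and 5.62 RPKM with rolipram, against 3.19 to 8.55 in vehicle. Libraries 1 and 2 were far above every vehicle library, library 3 just above the highest, and libraries 4 and 5 inside the vehicle range. The change was 1.17 (SE 0.31, adjusted p = 0.016), and the mean was 2.89-fold higher. The call was lost without rolipram 1 (0.94, adjusted p = 0.0598) or rolipram 2 (0.87, adjusted p = 0.0615), and without both the change was 0.47 (adjusted p = 0.274). With only these 2 groups fitted the adjusted p was 0.0604. The log2 SD of Dbp within the rolipram group was 0.98, above 99.5% of all genes.

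Arntl was 4.03, 2.49, 5.62, 6.54 and 11.2 RPKM with rolipram, against 6.38 to 12.0 in vehicle. Libraries 1 to 3 lay below all vehicle libraries. Its change of -0.62 (SE 0.25, adjusted p = 0.0983) did not pass, but did without rolipram 5 (-0.85, adjusted p = 0.0216). Clock (3.97, 2.43, 3.22, 3.39 and 5.47 RPKM) changed by -0.21 (SE 0.17, adjusted p = 0.404). Rolipram 5 held the highest Arntl, Clock, Per2 and Cry1 and the lowest Dbp, Per3 and Nr1d1 of its group.

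Per1 was 26.7, 25.8, 24.1, 17.9 and 25.7 RPKM with rolipram, inside the vehicle range of 19.7 to 49.2 apart from library 4. Its change was -0.34 (SE 0.34, adjusted p = 0.523), and that of Per2 was -0.22 (SE 0.18, adjusted p = 0.41). Per3 changed by 0.12 (SE 0.21, adjusted p = 0.714). Nr1d1 (26.02, 23.7, 19.5, 16.3 and 14.6 RPKM) changed by -0.19 (SE 0.26, adjusted p = 0.646). Nr1d2 (23.3, 18.5, 22.6, 16.4 and 19.5 RPKM) changed by -0.27 (SE 0.10, adjusted p = 0.0766), and passed without vehicle 1 (-0.31, adjusted p = 0.0421) or rolipram 3 (-0.31, adjusted p = 0.0464). The interval of these changes, about 2 SE either way, leaves room for effects of either sign in Clock, Per1, Per2, Per3 and Nr1d1.

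C26 rolipram against control set the treated tumour-bearing mice against healthy muscle. This comparison shares its controls with C26 vehicle against control and its rolipram libraries with the one above. Arntl, Clock, Per1 and Cry1 were higher and Dbp, Nr1d1, Nr1d2 and Per3 lower, while Per2 and Cry2 did not pass. The 4 higher and 4 lower calls stand beside 38.5% higher and 16.4% lower of all genes (54.8% in either direction), and 35.4% of all genes had groups that did not overlap. The median absolute change was 0.62 in the clock genes and 0.33 in all genes.

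Dbp in all 5 rolipram libraries stayed below all controls, and fell by 2.52 (SE 0.31, adjusted p = 1.69e-06), 5.10-fold in mean RPKM. Nr1d2 was also without overlap and fell by 0.65 (SE 0.10, adjusted p = 2.34e-05). Nr1d1 fell by 0.86 (SE 0.26, adjusted p = 0.00789), with overlap at control 5 alone, and was not called without controls 1 to 3 (-0.61, adjusted p = 0.102). Nr1d1 and Nr1d2, the repressors of Arntl, were thus called lower in both groups of tumour-bearing mice.

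Arntl rose by 1.05 (SE 0.25, adjusted p = 0.00153), and rolipram 2 alone lay within the control range. Cry1 rose by 0.50 (SE 0.12, adjusted p = 0.0017), where vehicle had changed by 0.03 from the same controls. Cry2 changed by 0.42 (SE 0.28, adjusted p = 0.21), where vehicle had changed by 1.31, and Per2 by 0.08 (SE 0.18, adjusted p = 0.72).

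The calls for Clock, Per1 and Per3 were lost under several alternatives in this comparison. Clock rose by 0.46 (SE 0.17, adjusted p = 0.0251), and the call was lost after median-of-ratios scaling (0.31, adjusted p = 0.102), without control 5 (0.42, 0.0502), without rolipram 1 (0.43, 0.0577) and without rolipram 5 (0.34, 0.101). Per1 rose by 0.96 (SE 0.34, adjusted p = 0.0227), and was not called after that scaling (0.78, adjusted p = 0.0704), without control 1 (0.77, 0.0524) or without controls 1 to 3 (0.25, 0.326). Per3 fell by 0.59 (SE 0.21, adjusted p = 0.0218), and was not called without rolipram 4 (-0.55, adjusted p = 0.0514) or rolipram 5 (-0.42, 0.0931).

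Arntl and Dbp, the activator and the output, ran opposite to each other among the vehicle libraries. The Dbp to Arntl ratio was 17.7 to 112 in controls (median 47.0), 0.265 to 1.34 in vehicle (median 0.576) and 0.503 to 11.8 with rolipram (median 1.59). Among the 7 vehicle libraries, Pearson's r of log2(RPKM + 1) was -0.956 (exact permutation p = 0.00337, adjusted p = 0.0202 over 18 relations, two-sided) and Spearman's rho -0.964 (exact permutation p = 0.00278, adjusted p = 0.05). Without the 2 libraries farthest from the median of Arntl, r was -0.927. Leaving out 1 library at a time gave r from -0.979 to -0.942, and the adjusted p was 0.05 without vehicle 4. The 18 relations were 9 gene pairs in controls and in vehicle, and this was the 1 relation of vehicle with an adjusted p of r below 0.05.

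The other 8 relations in vehicle did not pass. Arntl with Clock had r = 0.809 (rho 0.893), Arntl with Nr1d1 0.677 (rho 0.750) and Nr1d1 with Nr1d2 0.280 (rho 0.286), with adjusted exact permutation p of 0.0671, 0.137 and 0.552 for r. Per1 with Per2 had r = 0.794 (rho 0.750, adjusted p = 0.0686 by exact permutation) and Dbp with Per3 0.766 (rho 0.786, adjusted p = 0.075). Arntl with Fbxo32, a ubiquitin ligase of muscle atrophy, had r = 0.800 (rho 0.821, adjusted p = 0.0671 by exact permutation), and Dbp had r = -0.740 with it (rho -0.893, adjusted p = 0.075). Per1 with Tsc22d3, a glucocorticoid-induced gene, had r = 0.809 (rho 0.714, adjusted p = 0.0671 by exact permutation). In controls the libraries formed clusters of 3 and 4, each too small for a correlation, so no pooled r is read there, although the 9 control pairs count among the 18 relations of the adjustment. The 5 rolipram libraries were too few.

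**Figure D3:**
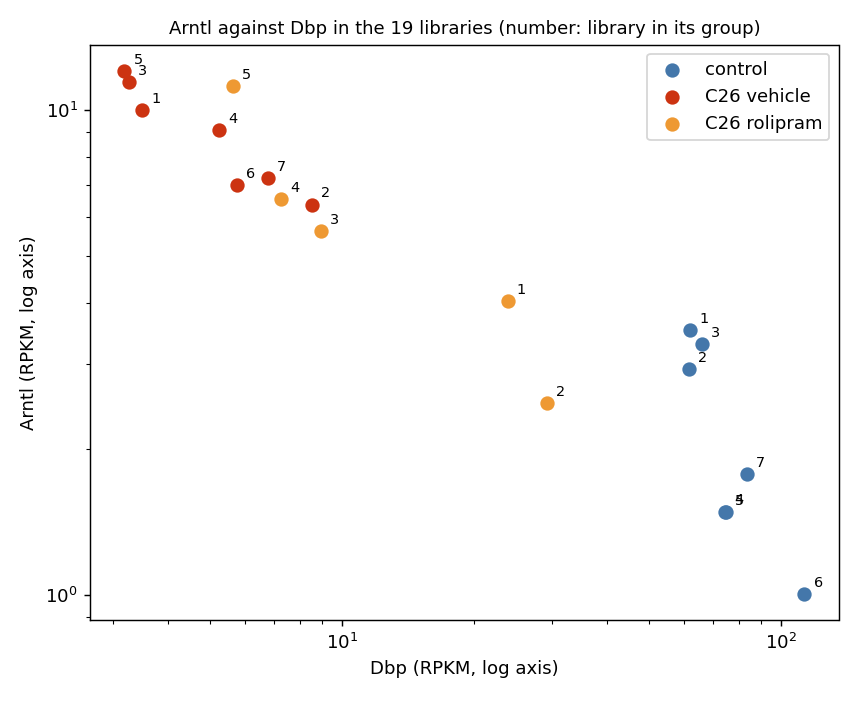
Arntl (vertical axis) against Dbp (horizontal axis) in RPKM, both on log scales, with each library numbered within its group. Controls lie at 61.6 to 113 RPKM of Dbp and 1.01 to 3.51 of Arntl, and vehicle libraries at 3.19 to 8.55 and 6.38 to 12.0. Rolipram libraries 1 and 2 lie between these groups in Dbp. In Arntl library 1 also lies between them, and library 2 lies within the control range.

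Genes that varied most like Arntl and Dbp within groups were ranked by Pearson's r of deviations from the group mean over the 19 libraries, as a description. Closest to Arntl outside the clock genes were Slc25a36 (0.876), Nufip2 (0.873), Ap1g1 (0.871), Ptar1 (0.859) and Zbtb41 (0.854), with Clock close behind at 0.835. Dbp had the lowest value of all genes tested against Arntl, -0.881, and Per3 was at -0.800. Closest to Dbp were Wdr44 (0.901), Hmox2 (0.825), Ciao1 (0.824), Abhd14b (0.824) and Wdr45 (0.812), with Per3 at 0.678. These values share library depth and any composition effect. They also pool the clustered controls, in which no r is read, and the rolipram libraries, which were too few for a correlation. The ranking by itself therefore does not show a relation within a given group. How far the split among controls or the spread among rolipram libraries sets these values was not tested.

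Other transcription factors of the loop had 8 members above the filter, of 11 listed. In vehicle against control 3 were higher, 4 lower and 1 not called, beside 43.3% higher and 23.8% lower of all genes tested. Their median change was -0.14, beside 0.15 for all genes. Bhlhe41 (Dec2), a repressor that competes for E-boxes, fell from 12.1 ± 1.48 to 2.14 ± 0.500 RPKM without overlap, by 2.06 (adjusted p = 2.89e-11). Hlf, a D-box factor of the same family as Dbp, fell from 3.82 ± 0.916 to 0.902 ± 0.217 RPKM, by 1.33 (adjusted p = 4.97e-09), whereas Tef, the other relative of Dbp, changed by 0.04 (adjusted p = 0.783). Rora, an activator that binds ROREs, rose from 7.70 ± 0.945 to 31.8 ± 16.2 RPKM, by 1.78 (adjusted p = 6.61e-07). The part of Rora in the change of Arntl was not tested. Nfil3, which represses at D-boxes, rose by 2.38 (adjusted p = 1.49e-06), and Ciart and Bhlhe40 fell by 1.22 and 0.32.

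Between rolipram and vehicle, Rora fell by 1.05 to 13.7 ± 3.43 RPKM without overlap (adjusted p = 0.00692), and Bhlhe41 rose by 0.44 to 3.28 ± 0.875 (adjusted p = 0.0276). The other 6 were not called, where 17.1% of all genes were called in either direction, and the median was -0.24. Against control the counts with rolipram were 3 higher, 4 lower and 1 not called, beside 38.5% higher and 16.4% lower of all genes. Bhlhe41 (-1.62) and Hlf (-1.18) were among the lower.

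**Figure D4:**
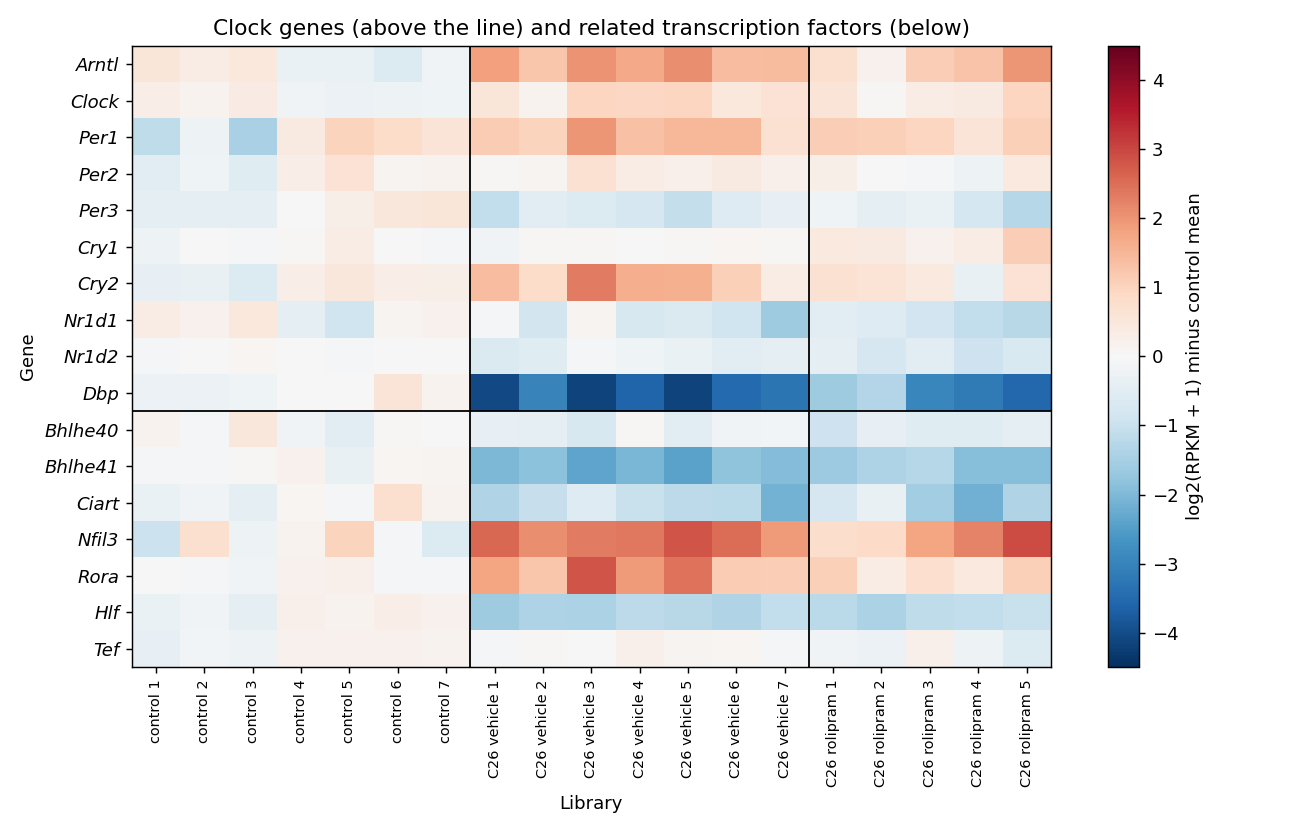
Log2(RPKM + 1) minus the control mean in each library (columns, by group) for the 10 clock genes and 7 other transcription factors of the loop (rows), on a colour scale centred on 0. Dbp and Bhlhe41 are below 0, and Arntl and Rora above it, in all 7 vehicle libraries, and controls 1 to 3 differ from controls 4 to 7 in Per1.

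The remaining lists are given by their counts, to be read beside the shares of all genes called. These were 43.3% higher and 23.8% lower for vehicle against control, 9.78% and 7.32% for rolipram against vehicle, and 38.5% and 16.4% for rolipram against control. Of 16 kinases and ubiquitin pathway genes that modify clock proteins, 11 were higher, 2 lower and 3 not called in vehicle against control (median 0.57, beside 0.15 for all genes). Csnk1d, a casein kinase that phosphorylates PER proteins, rose by 0.83 (adjusted p = 4.39e-07), Csnk1a1 by 0.96 (adjusted p = 5.22e-08), and the ligase subunit Fbxw7 fell by 0.93 (adjusted p = 5.21e-09). With rolipram against vehicle 0 were higher and 3 lower, where 17.1% of all genes were called in either direction. Fbxw11, a ligase subunit that marks PER proteins for breakdown, was among the lower genes and fell by 0.66 (adjusted p = 0.00585). Against control 6 were higher and 2 lower with rolipram (median 0.20), with the lowest p in each direction for Csnk1d (0.80) and Csnk1a1 (0.72) and for Fbxw7 (-0.86).

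Of 20 coregulators, 13 were higher and 3 lower in vehicle, beside 43.3% and 23.8% of all genes (median 0.39), among them Cipc, an inhibitor of the Clock protein (0.94, adjusted p = 9.07e-06), Wdr5 (0.81) and Parp1 (-0.69). With rolipram against vehicle 1 was higher (Tipin, 0.31) and 1 lower (Tbl1xr1, -0.54), beside 17.1% of all genes called. Against control 6 were higher, with the lowest p for Sfpq (0.72) and Nono (0.43), and 1 lower, Parp1 (-0.50).

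Of 16 muscle genes described as under clock control, 5 were higher, 3 lower and 8 not called in vehicle, beside 43.3% higher and 23.8% lower of all genes (median 0.08). Cdkn1a, a cell cycle inhibitor, rose from 5.66 ± 2.18 to 76.8 ± 32.1 RPKM (change 3.48, adjusted p = 2.1e-08), Por rose by 1.21, and Myod1, a myogenic factor that Arntl and Clock bind, fell by 1.28 (adjusted p = 0.00149). With rolipram against vehicle 2 were higher and 1 lower. Tbc1d1, a regulator of glucose uptake, rose from 6.45 ± 3.52 to 27.9 ± 12.4 RPKM (2.00, adjusted p = 0.000602), Myod1 rose by 1.30 (adjusted p = 0.0168) and Por fell by 0.67. Against control 6 were higher, with the lowest p for Cdkn1a (3.24) and Tspan4 (0.89), and 1 lower, Coq10b (-0.88).

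Of 16 genes of the signals that reset the clock, 12 were higher, 0 lower and 4 not called in vehicle, beside 43.3% higher and 23.8% lower of all genes (median 0.93). Fkbp5, induced by glucocorticoids, rose from 5.14 ± 3.81 to 86.2 ± 28.8 RPKM (3.92, adjusted p = 6.23e-10), and Tsc22d3 from 80.6 ± 28.6 to 265 ± 59.8 (1.75, adjusted p = 1.28e-07). Their part in the change of Per1 was not tested. With rolipram against vehicle 0 were higher and 4 lower, among them Sik1, a kinase induced by cyclic AMP (-1.24, adjusted p = 0.0176), and its substrate Crtc2, a coactivator of CREB (-0.46, adjusted p = 0.0146). Against control 9 were higher and 1 lower with rolipram (median 0.60). Fkbp5 (3.83) and Tsc22d3 (1.73) stayed high and Nr3c1, the glucocorticoid receptor, fell by 0.63 (adjusted p = 0.00161).

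Marker genes of muscle fibres and other cells also differed in level between groups. In bulk tissue, fewer cells of a type and less RNA per cell cannot be told apart. The shares of all genes called in vehicle against control were 43.3% higher and 23.8% lower. There muscle fibre markers had 0 of 11 higher and 5 lower (sum 47245 to 75459 RPKM in vehicle), macrophage markers 6 of 7 tested higher (sum 15.3 to 44.1 RPKM in controls, 44.2 to 124 in vehicle), erythroid markers 5 of 5 higher, and neutrophil markers 2 of 2 higher. Endothelial markers had 3 of 7 higher and 1 lower, fibroblast markers 1 of 8 higher and 5 lower, tendon markers 0 of 6 higher and 5 lower, and adipocyte markers 0 of 4 higher and 1 lower. No satellite cell marker passed the filter, of 4 listed. Between rolipram and vehicle, 17.1% of all genes were called in either direction. There 1 erythroid marker was lower and 1 tendon marker higher, and 0 of 11 muscle fibre and 0 of 7 macrophage markers were called. Median changes were -0.66 for erythroid, -0.40 for tendon, -0.16 for muscle fibre and -0.27 for macrophage markers, beside -0.01 for all genes. For the 2 neutrophil markers the median was 0.51. The part of these shifts in the clock gene changes was not tested.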

How the data were processed

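The authors' deposited table holds RPKM for 13067 gene symbols in 19 columns, 1 per library. Per the labels' protocols, RNA was extracted from snap-frozen muscle and libraries were made with a stranded polyA kit. Per the submitters' processing notes, STAR 2.5.3a, featureCounts 1.6.4 and the build mm10 were used. The annotation release, the strand setting and the program that made the RPKM are not given in the sources used here. Library sizes were recovered from the values: 13063 genes (99.97%) came out as whole reads in all libraries within 0.001 read, with an added prior of 0.25 read on average, and listed genes held 98.0 to 98.8% of each library. Sizes ran from 17.1 to 46.8 M reads. Reads per library ran from 61 to 1650 for Arntl and from 123 to 4088 for Dbp, and the counting error was not computed. No count model was fitted, since the deposited unit is RPKM.

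The 11141 genes that reached 1 RPKM in 5 or more libraries were tested on log2(RPKM + 1), with a pseudocount of 1, in limma 3.58.1 (R 4.3.3) with trend and robust moderation over all 3 groups, two-sided, with Benjamini-Hochberg adjustment across the 11141 genes in each comparison. A log2 change on this scale understates changes of low genes. Correlations used exact permutation (Python 3.11.15, NumPy 2.4.6, SciPy 1.17.1). The fit was tested on simulated data. Groups and numbers came from the labels. The clock genes, the lists of other genes and the rule for named genes were chosen with earlier results of these data known. That rule names all 10 clock genes, and from each other clock list, per comparison, 2 called genes of the direction most members took and 1 of the opposite direction, those with the lowest p, together with the 5 genes most like Arntl and the 5 most like Dbp. Rora, Ciart, Bhlhe40, Nfil3, Tef, Sphk2 and Thra were also named where the rule did not reach them, and some genes that it chose are not reported here. Gene positions and overlaps are from GENCODE M21 and promoters from RefSeq (GRCm38.p6). Alternatives were the pseudocount, the filter, 2 scalings, unmoderated variance, fits of 2 groups, the replicate block, exact permutation and leaving out each library, and 2 more were added after seeing the data.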

Additional observations from a re-analysis of the deposited data

Results flagged for a closer look

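In 4 of 30 sets of values (10 genes in 3 groups) the highest or lowest library stood far from the others of its group by Dixon's test, and chance flags about 1 in 20. Per1 in C26 rolipram 4 was lowest at 17.9 RPKM, against 24.1 to 26.7 in the other 4. Cry2 was also lowest in that library, at 9.8 RPKM, against 17.3 to 21.1. Cry1 in C26 rolipram 5 was highest at 12 RPKM, against 5.93 to 7.09. Cry1 in C26 vehicle 1 was lowest at 4.4 RPKM, against 5.14 to 5.34 in the other 6, a group in which Cry1 varied less than all but 1.94% of genes.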

How the results depend on the processing

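With 10 clock genes in 3 comparisons, 251 of 280 results under alternatives kept direction and side of the threshold, 20 lost and 1 gained a call and 8 reversed; with single libraries left out, 359 of 380 kept both, 13 lost and 4 gained a call and 4 reversed. All 4 higher and 4 lower calls of C26 vehicle against control held under each alternative except the removal of controls 1 to 3, which left 4 and 3. For C26 rolipram against C26 vehicle (2 higher, 1 lower), counts were 1 and 0 with only the 2 groups compared (467 and 300 genes over the table, against 1090 and 816). They were 0 and 0 without rolipram 1 and 2, and 0 and 0 by exact permutation. Adjusted p by exact permutation was 0.0567 for Cry1, 0.109 for Dbp and 0.128 for Cry2. Of all genes 0 passed that test, and 2820 had an unadjusted p below 0.05 in it. Its smallest possible p was 0.00126, the value of Cry1. For C26 rolipram against control, 2 were higher after median-of-ratios scaling. Per1 there had an adjusted p of 0.109 after quantile normalisation, 0.0608 with 2 groups, 0.105 without rolipram 1 and 2 and, as Per3, 0.0761 by exact permutation. With 1 library left out, counts of higher and lower were 4 to 5 and 4 to 4 for vehicle against control, 1 to 2 and 0 to 2 for rolipram against vehicle, and 3 to 4 and 3 to 4 for rolipram against control; 0 to 6 correlations passed, against 5 of 18, of which 4 were in controls, where the libraries form clusters and r is not read. Cry1 in vehicle against control was -0.128 after median-of-ratios scaling, -0.127 after quantile normalisation, -0.048 without controls 1 to 3 (Per2 -0.013 there) and -0.010 to 0.084 with 1 library left out. Per2 in rolipram against control was -0.088, -0.039 and -0.232 in these scalings and without controls 1 to 3, and -0.010 to 0.189 with 1 library left out. Per3 between rolipram and vehicle was -0.061 without rolipram 1 and 2, and r of Nr1d1 with Nr1d2 was -0.581 in controls after median-of-ratios scaling and -0.208 to 0.700 in vehicle with 1 library left out. The causes were not tested. Same-numbered libraries correlated from -0.358 to 0.387, and 4 of 17 matched best with their own number. The matches were 3 of 7 between control and vehicle, 0 of 5 between control and rolipram and 1 of 5 between vehicle and rolipram. The labels do not say that the numbers pair the samples, and this check cannot exclude it. With the replicate block 2 genes were lower between rolipram and vehicle (Arntl, -0.75, joined Cry2). Against control, Clock (0.40, adjusted p = 0.0613) and Per3 (-0.44, 0.086) were not called with that block.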
